A study of Rattus norvegicus with 4 samples.

Results

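The Crumbs and Par polarity genes are 10 genes of the protein complexes that mark the apical side of a cell: Crb1, Crb2, Crb3, Mpp4, Mpp5, Pard3, Pard6a, Lin7a, Lin7c and Prkci. They were taken by symbol from 14485 gene names with values, and all 10 had a value in both libraries. The set was put together by role and selected on the eye and retina values of Crb2, which was among the genes lowest in eye. The eye and retina differences of these genes are therefore described and not tested. RNA was sequenced from eye and from retina of Long Evans rats, which are pigmented, with a Wild Type genotype and no treatment or age named in the labels. The labels list 2 technical replicates for each of the 2 tissues, and each library was pooled from the RNA of 5 rats. A single column of values per tissue was analysed, called its library here, and the differences stand without replicates or p-values. It is not known whether that column joins both technical replicates, so the totals and reads given here may come from 1 replicate or from both. The description given for all 4 samples names retina mRNA, whereas their titles and tissue labels set eye apart from retina.

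In epithelial cells the Crumbs complex joins a transmembrane Crumbs protein to the scaffold Pals1, the product of Mpp5, and to further PDZ-domain proteins. The Par complex joins Pard3, a Pard6 adaptor and an atypical protein kinase C. In the retina both sit at the outer limiting membrane, just apical to the adherens junctions between photoreceptors and Mueller glia. Loss of CRB1 function in humans causes inherited retinal dystrophy.

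Values are RPKM, reads scaled by the length of the gene model and by the total reads of the library, a unit inferred from the values. The totals were 28071917 reads for eye and 51944762 for retina, and the 10 genes rested on 86 to 24308 reads each. These reads were recovered from the values and may be a shared divisor of the true ones. Intervals are exact 95% intervals from these reads; they cover counting error only and compare the 2 libraries, not the tissues. In both bulk libraries, fewer cells of a type and less RNA per cell cannot be told apart. A difference of at least 2-fold was called, on log2 of the values with 0.1 added.

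Of the 10 genes, 3 (Crb1, Crb2 and Mpp4) were at least 2-fold lower in the eye library, where 7.95% of all 13259 genes tested were lower. Crb3 alone was at least 2-fold higher, against 17.8% of all genes tested. The other 6 genes lay within 2-fold. As the contrast was used to choose the set, nothing is read from these counts. The median log2 difference of the 10 genes was -0.41, beside -0.01 for all genes tested. Under the scalings tried, Crb1, Crb2 and Mpp4 always had the lower value in eye and Crb3 the higher.

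**Figure D1:**
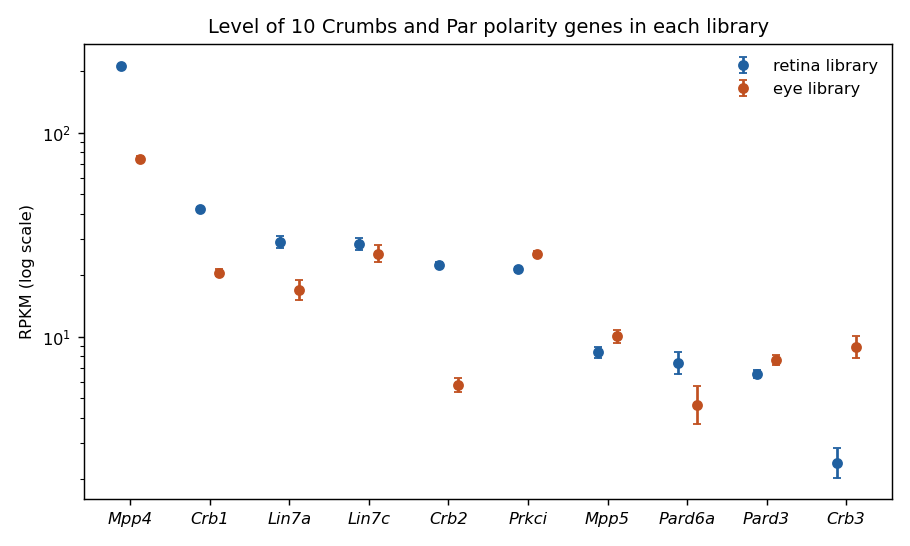
RPKM on a log axis of each of the 10 genes in the retina library (blue) and the eye library (orange), ordered by the retina value; points are the deposited values and bars are exact 95% Poisson intervals of the recovered reads, counting error only. Mpp4 stands highest in both libraries, at 213 in retina and 74.5 in eye, and Crb3 is lowest in retina at 2.41 but not in eye at 8.92.

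The 3 Crumbs genes encode the transmembrane proteins. Crb1, with a large extracellular part of EGF and laminin G repeats, stood at 42.2 RPKM in retina (9418 reads) and 20.6 in eye (2479 reads). It was 2.05-fold lower in eye (interval 1.96 to 2.15), at the 2-fold threshold, and fell short of it under totals without lens genes. Crb2, which encodes a related large Crumbs protein, stood at 22.5 RPKM in retina (4503 reads) and 5.79 in eye (626 reads). It was 3.89-fold lower in eye (interval 3.57 to 4.23), the value for which it was selected. Crb3 encodes a Crumbs protein with a short extracellular part that is widespread in epithelia. It stood at 2.41 RPKM in retina (137 reads) and 8.92 in eye (274 reads), and was thus 3.70-fold higher in eye (interval 3.004 to 4.58).

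Among the 7547 genes that reached 10 RPKM in 1 or both libraries, Crb2 stood at position 6 from the lowest log2 difference. Pitpnm3 stood just before it, 4.01-fold lower in eye. Positions 10 and 11 were held by RGD1561115 (3.77-fold) and Cacna2d4 (3.69-fold). Mpp4 was at position 80 and Crb1 at position 596 of the same ranking.

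Ratios between members inside 1 library do not depend on how the libraries are scaled. Crb2 had 0.533 of the value of Crb1 in retina (interval 0.514 to 0.552) and 0.281 in eye (0.257 to 0.307). The balance between these 2 large Crumbs genes thus differed 1.89-fold between the libraries. Crb1 was 17.5 times Crb3 in retina (interval 14.8 to 20.9) and 2.31 times Crb3 in eye (2.03 to 2.62). Crb3 exceeded Crb2 in eye, at 1.54 times its value (1.33 to 1.78), and had 0.107 of it in retina (0.0897 to 0.127). As shares of the summed value of the 3 genes, Crb1, Crb2 and Crb3 made up 62.9%, 33.5% and 3.59% in retina. In eye the shares were 58.3%, 16.4% and 25.3%. The share of Crb1 was thus close in both libraries, while Crb2 and Crb3 exchanged places. The ratios with Crb2 and all these shares rest on the values for which Crb2 was selected. They are described and not tested.

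**Figure D2:**
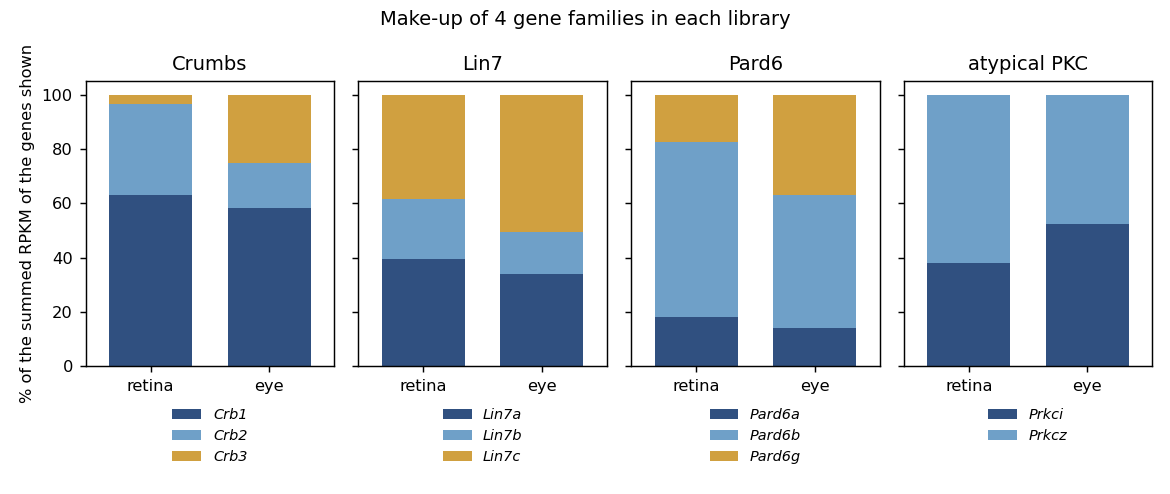
Stacked bars of the share (%) that each gene takes of the summed RPKM of its family, in the retina and eye libraries, for 4 families; there are no error bars. Crb3 takes 3.59% of the Crumbs sum in retina and 25.3% in eye, and Prkci takes 38.2% of the atypical kinase sum in retina and 52.5% in eye.

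The sequences upstream of the genes that differed most are shown for Crb2 and Mpp4, lower in the eye library, and for Crb3, higher there. They are the 250 bases before the gene start in the RefSeq table of the rat assembly GRCr8, 5′ to 3′ on the gene's strand. Entries were found for 9 of the 10 genes, all but Crb1. Capitals mark GGGCGG, named for Sp factors, and CACGTG, an E-box, on either strand.
Crb2, chr3:41951650-41951899 (plus strand): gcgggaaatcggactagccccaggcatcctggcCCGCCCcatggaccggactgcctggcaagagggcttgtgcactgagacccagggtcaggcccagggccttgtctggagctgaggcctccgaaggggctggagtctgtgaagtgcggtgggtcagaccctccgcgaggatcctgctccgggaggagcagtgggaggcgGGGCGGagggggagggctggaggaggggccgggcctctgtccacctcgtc
Mpp4, chr9:68103051-68103300 (minus strand): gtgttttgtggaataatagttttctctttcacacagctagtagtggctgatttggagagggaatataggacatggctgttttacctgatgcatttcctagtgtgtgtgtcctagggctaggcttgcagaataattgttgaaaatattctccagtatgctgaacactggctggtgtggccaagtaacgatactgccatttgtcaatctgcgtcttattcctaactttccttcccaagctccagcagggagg
Crb3, chr9:1987504-1987753 (plus strand): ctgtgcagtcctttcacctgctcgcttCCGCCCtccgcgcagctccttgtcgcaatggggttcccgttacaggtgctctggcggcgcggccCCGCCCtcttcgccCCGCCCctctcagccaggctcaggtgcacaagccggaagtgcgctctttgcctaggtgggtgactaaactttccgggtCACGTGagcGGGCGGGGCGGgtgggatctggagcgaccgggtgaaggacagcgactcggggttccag
The Crb3 window held GGGCGG 5 times and CACGTG once, the Crb2 window held GGGCGG 2 times, and the Mpp4 window held neither. GC content was 67.2% for Crb3, 70.0% for Crb2 and 44.0% for Mpp4, beside a median of 51.2% over 33469 promoters of the table. GGGCGG lay in at least 1 window of 6 of the 9 genes and in 30.5% of all promoters. CACGTG, which reads the same on both strands, lay in those of 2 (Crb3 and Pard6a) and in 5.59% of all. TAATCC, a motif of the photoreceptor factors Crx and Otx2, lay in 0 of the 9 and in 6.34% of all. AACCGG, named for grainyhead-like factors, lay in 1 (Lin7c) and in 5.67% of all. Counts of the 9 are by gene and the percentages are by promoter entry, so the units differ. Pard6a had 2 windows, with CACGTG in 1 of them. A match is a run of letters in this window and not a binding site, and each motif was searched on both strands.

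The scaffolds that join Crumbs to other proteins are membrane-associated guanylate kinases. Mpp4, which in mouse lies at the photoreceptor synapse, was the most abundant of the 10 genes in both libraries. Its level was 213 RPKM in retina (24308 reads) and 74.5 in eye (4606 reads), ranking 145 and 731 of 14485 names. It was 2.85-fold lower in eye (interval 2.76 to 2.94). Mpp4 took 55.8% of the summed value of the 10 genes in retina and 37.2% in eye. Mpp5, whose product Pals1 binds the Crumbs tail directly, stood at 8.37 RPKM in retina (1141 reads) and 10.04 in eye (740 reads). Its eye value was 1.20 times its retina value (interval 1.09 to 1.32), and fell below it with equal summed values. Mpp4 was 25.4 times Mpp5 in retina (interval 23.9 to 27.0) and 7.42 times Mpp5 in eye (6.87 to 8.03).

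Lin7a and Lin7c encode small PDZ proteins that bind these scaffolds through L27 domains. Lin7a stood at 29.1 RPKM in retina (994 reads) and 17.03 in eye (314 reads), lower in eye by a ratio of 1.71 (interval 1.51 to 1.95). Lin7c stood at 28.4 RPKM in retina (877 reads) and 25.5 in eye (425 reads). The interval of its ratio, retina over eye, ran from 0.992 to 1.26 around 1.12 and included 1, and its direction turned once lens genes were taken from the totals. Lin7c and Lin7a could not be separated in retina, at a ratio of 0.976 (0.890 to 1.07), whereas Lin7c was 1.497 times Lin7a in eye (1.29 to 1.74). Lin7b, the third gene of the family, stood at 16.2 RPKM in retina (263 reads) and 7.76 in eye (68 reads). It was 2.09-fold lower in eye, a call lost once lens genes were taken from the totals.

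Each of the 3 Par genes lay within 2-fold. Pard3, the scaffold of the Par complex, stood at 6.59 RPKM in retina (1818 reads) and 7.67 in eye (1144 reads), a ratio of eye to retina of 1.16 (interval 1.08 to 1.25). Prkci, the atypical kinase iota, stood at 21.4 RPKM in retina (4999 reads) and 25.5 in eye (3223 reads), a ratio of 1.19 (1.14 to 1.25). Both had their lower value in eye with equal summed values. Pard6a, an adaptor that binds Cdc42 and the kinase, stood at 7.42 RPKM in retina and 4.65 in eye. It rested on 254 reads in retina and on 86 in eye, the fewest of the set, and was 1.596-fold lower there (interval 1.25 to 2.06).

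The paralogs of these Par genes, added after their values were seen, gave another order of levels. Pard6b stood at 26.3 RPKM in retina and 16.3 in eye, above Pard6a in both libraries. Pard6g stood at 7.20 RPKM in retina and 12.3 in eye, a ratio of eye to retina of 1.71 (interval 1.49 to 1.97). Of the summed Pard6 value, Pard6g took 17.6% in retina and 37.0% in eye, and Pard6a took 18.1% and 13.9%. Prkcz, the zeta kinase, stood at 34.7 RPKM in retina and 23.1 in eye, 1.499-fold lower there. The iota gene Prkci therefore held 38.2% of the sum of both kinases in retina and 52.5% in eye. Pard3 took most of the Pard3 and Pard3b sum in both, 87.0% in retina and 84.0% in eye.

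**Figure D3:**
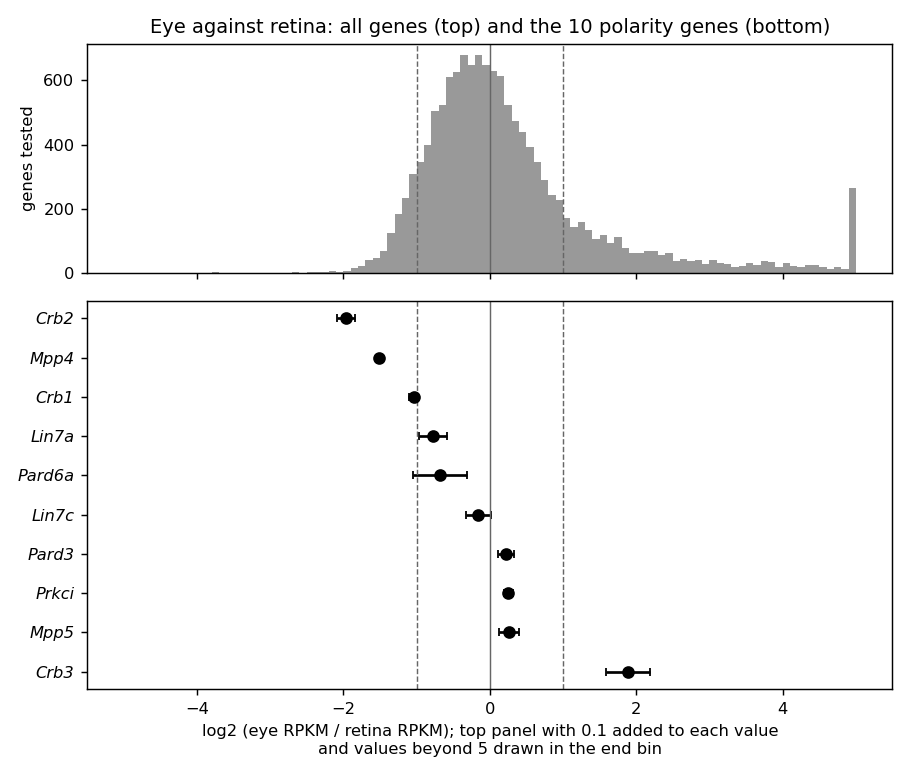
Top, number of genes tested by log2 of eye over retina with 0.1 added; bottom, log2 of eye over retina RPKM for the 10 genes with exact 95% intervals from the reads (counting error only); dashed lines mark 2-fold. Crb2, Mpp4 and Crb1 lie left of the lower line and Crb3 right of the upper line, while Lin7c crosses 0. The signs of Lin7c, without lens genes in the totals, and of Mpp5, Pard3 and Prkci, with equal summed values, turned.

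By level per length, the order in retina was Mpp4, Crb1, Lin7a, Lin7c, Crb2, Prkci, Mpp5, Pard6a, Pard3 and Crb3. Neighbours whose ratio had an interval that included 1 were Lin7a with Lin7c, Mpp5 with Pard6a, and Pard6a with Pard3. The order in eye was Mpp4, Prkci, Lin7c, Crb1, Lin7a, Mpp5, Crb3, Pard3, Crb2 and Pard6a. There the unresolved neighbours were Prkci with Lin7c, Mpp5 with Crb3, and Crb2 with Pard6a. Crb2, selected for its low value in eye, thus moved from position 5 to position 9, and Crb3 from 10 to 7. In each library 7 of the 10 genes lay above the median of all names, which was 8.11 in retina and 8.75 in eye.

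Markers of the tissues in the libraries are set beside these genes, and their part in the differences was not tested. All 9 rod photoreceptor genes had their lower value in eye, by log2 differences from -1.12 to -0.48, and their summed value was 37340 in retina and 18085 in eye. Crb2 (-1.94) and Mpp4 (-1.51) lay below that whole range, and also below the bipolar cell genes (-1.32 to -0.37, 8 of 8 lower in eye). Crb2 was selected for its value, and nothing is read from the place of either gene. Rod genes at least 2-fold lower in eye numbered 6 as deposited, 0 without lens genes in the totals and 9 with equal summed values. Beside these stand 7.95%, 4.23% and 31.9% of all genes tested. As deposited, the 8 Mueller glia genes were mixed, with 5 of lower value in eye and 3 of higher. Their median of -0.18 turned to 0.01 without lens genes in the totals. With equal summed values 2 were called lower and 0 higher, beside 31.9% and 11.5% of all genes, and the median was -0.81. All 9 corneal and conjunctival epithelium genes were at least 2-fold higher in eye, beside 17.8% of all genes tested. Their sums were 4906 in eye and 8.73 in retina. None of these markers was listed at 0 in either library. Of 16 lens genes 15 were higher in eye, and they held 12.6% of all reads counted in the eye library total and 0.140% in that of retina. Of 9 retinal pigment epithelium genes tested 6, and of 9 skeletal muscle genes 9, were higher in eye. The same 17.8% of all genes stands beside the lens, pigment epithelium and muscle counts. With equal summed values, higher genes numbered 8 for corneal and conjunctival epithelium, 15 for lens, 4 for pigment epithelium and 9 for muscle, beside 11.5%. In the lens and pigment epithelium lists 1 gene each was then lower, beside 31.9%. Without lens genes in the totals, 7 pigment epithelium genes were higher, beside 21.2%.

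Among other partners of the Crumbs complex, 3 of 8 tested genes were lower in eye and 2 higher, beside 7.95% and 17.8% of all genes tested. Their median log2 difference was -0.36. With equal summed values 4 were lower and 0 higher, beside 31.9% and 11.5% of all genes, and the median was -0.997. Mpp2 and Mpp3, further scaffolds of the Mpp family, were 2.39-fold and 2.35-fold lower (50.3 and 12.6 in retina, 21.1 and 5.38 in eye). Lin7b was the other lower gene. Mpp6 stood at 8.93 RPKM in retina and 22.04 in eye, 2.47-fold higher, and Amot (angiomotin) at 0.688 and 1.796, 2.61-fold higher. With equal summed values neither was called. Mpdz, a multi-PDZ scaffold, stood at 19.8 RPKM in retina and 12.8 in eye and was not called. Within the Mpp family, Mpp2, Mpp3 and Mpp4 were lower in eye, Mpp6 was higher, and Mpp5 and Mpp7 were not called. Mpp4 and Mpp5 belong to the chosen set, and nothing is read from these calls. The shares of Mpp2, Mpp3 and Mpp4 in the family sum were 16.6%, 4.18% and 70.2% in retina. In eye they were 14.8%, 3.78% and 52.4%. Mpp6 took 2.95% in retina and 15.5% in eye, Mpp5 2.76% and 7.06%, and Mpp7 3.25% and 6.44%.

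Of 12 other Par genes, 0 were called in either direction, beside 7.95% lower and 17.8% higher among all genes. Their median was -0.12. Without lens genes in the totals 1 (Cdc42) was higher in eye, beside 21.2% of all genes, and the median was 0.07. With equal summed values 5 were lower, beside 31.9% of all genes. The median was then -0.75, beside -0.64 for all genes tested. Cdc42 and Rac1, small GTPases that act with Pard6, were the most abundant, at 134 and 129 in eye and 75.7 and 75.9 in retina. Stk11, the Par-4 kinase, was at 24.4 in eye and 37.4 in retina. Of 9 tested basolateral Scribble genes, which oppose the apical complexes, 2 were lower in eye and 0 higher, with a median of -0.46, beside 7.95% lower among all genes tested. With equal summed values 7 of the 9 were lower, beside 31.9% of all genes, and the median was -1.10. Llgl2 and Dlg4 were the 2 genes lower as deposited. Llgl2 was 2.60-fold lower (60.6 in retina and 23.3 in eye). Dlg4, the postsynaptic scaffold PSD-95, was 2.35-fold lower (224 and 95.5). Scrib, the scaffold that names the list, stood at 24.5 RPKM in retina and 17.8 in eye.

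Of 14 genes of the adherens junction list, 3 were higher in eye, a share near the 17.8% of all genes tested. Of the same 14 genes, 0 were lower, beside 7.95%. Their median was 0.27, and -0.37 with equal summed values, where 2 were higher and 1 lower, beside 11.5% and 31.9% of all genes. The higher genes were F11r, a junctional adhesion molecule (6.06-fold, 3.14 in retina and 19.0 in eye), Cdh1, or E-cadherin (3.59-fold, 4.86 and 17.4), and Jup, or plakoglobin (2.64-fold, 24.4 and 64.4). Jup was not called with equal summed values. Besides cadherins and catenins, the list holds the junctional adhesion molecule genes F11r, Jam2 and Jam3 and the tight junction scaffold gene Tjp1. Cdh2, or N-cadherin, named after its values were seen as the cadherin of retinal junctions, stood at 35.9 RPKM in retina and 37.0 in eye. The interval of its ratio, 0.994 to 1.07, included 1. Ctnnb1, or beta-catenin, was at 158 and 141, and Ctnna1, or alpha-catenin, at 32.0 and 52.4. The direction of Ctnnb1 turned without lens genes in the totals, and that of Cdh2 with equal summed values.

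Of 10 genes of the ERM and Hippo list, membrane-to-actin linkers and growth-control genes that bind apical complexes, 4 were higher in eye and 0 lower, with a median of 0.78, beside 17.8% higher among all genes tested. With equal summed values 2 were higher and 2 lower, beside 11.5% and 31.9% of all genes, and the median was 0.14. Wwtr1, the transcriptional coactivator TAZ, was 4.87-fold higher (2.68 in retina and 13.0 in eye). Ezr (ezrin) was 3.46-fold higher (15.3 and 52.7) and Msn (moesin) 2.99-fold higher (9.69 and 29.0). Yap1, the paralog of Wwtr1, was 2.04-fold higher (12.8 and 26.1). Msn and Yap1 lost their calls with equal summed values. Podxl and Nf2 had their higher values in retina, 55.6 against 35.5 and 35.1 against 25.4. Neither was called as deposited, and both were lower in eye with equal summed values.

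**Figure D4:**
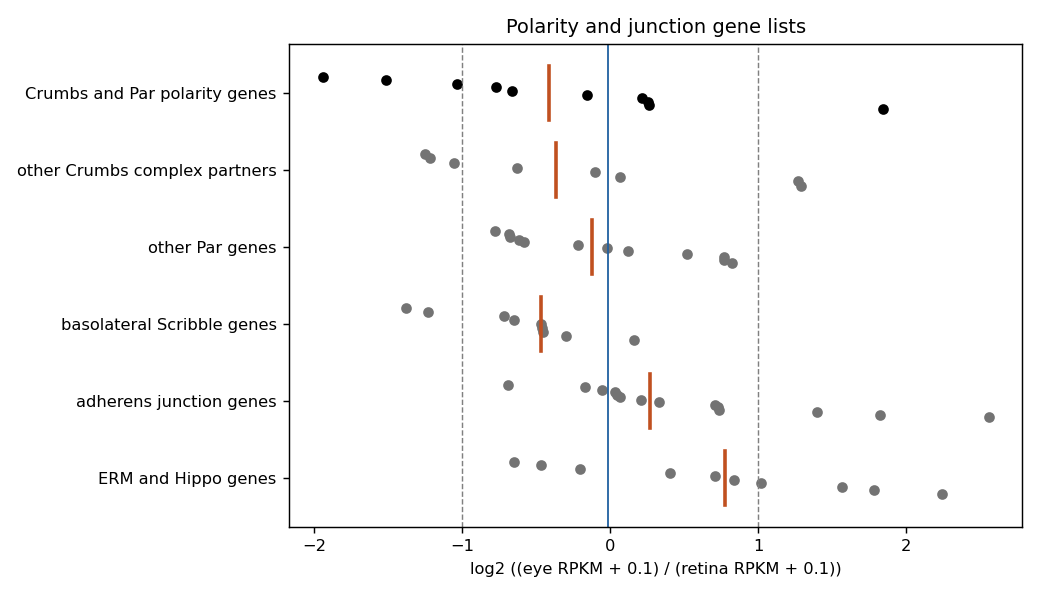
Each point is a gene tested, at its log2 of eye over retina RPKM with 0.1 added, for the 10 genes of the set (black) and 5 related lists (grey); orange bars are list medians, the blue line is the median of all genes tested and dashed lines mark 2-fold. Medians run from -0.46 for the Scribble list to 0.78 for the ERM and Hippo list; with equal summed values the adherens junction median was -0.37 and without lens genes in the totals that of the other Par genes was 0.07.

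The scaling of the libraries moved all 10 genes together. Leaving lens genes out of the totals moved the log2 ratio by 0.19 and equal summed values moved it by -0.64, before 0.1 was added. Without lens genes, 2 of the 10 genes (Crb2 and Mpp4) were lower in eye, beside 4.23% of all genes tested, and 1 (Crb3) was higher, beside 21.2%. With equal summed values 5 (also Crb1, Lin7a and Pard6a) were lower, beside 31.9% of all genes, and Crb3 was still higher, at a log2 difference of 1.21, beside 11.5% of all genes.

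**Figure D5:**
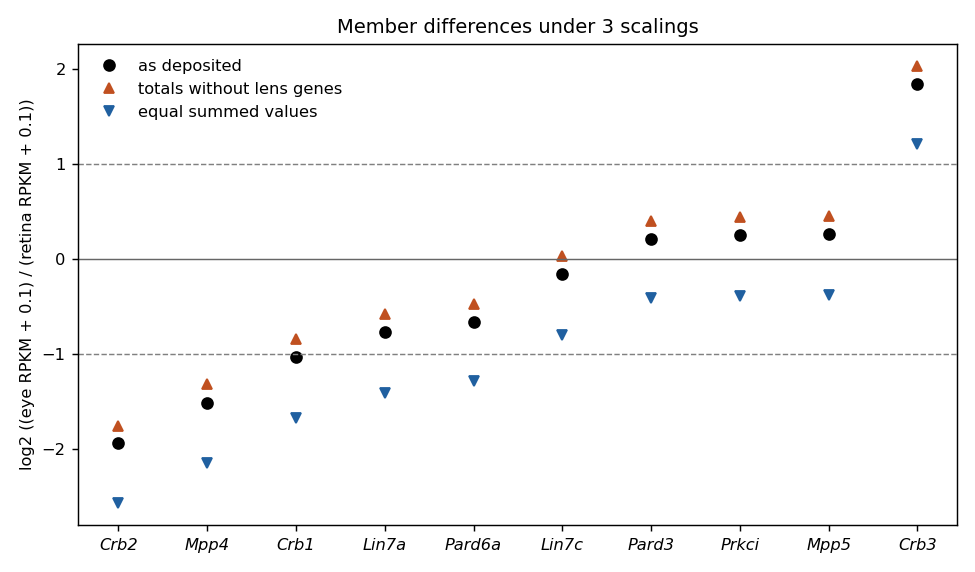
The log2 of eye over retina RPKM with 0.1 added, for the 10 genes as deposited (circles), with totals without lens genes (upward triangles) and with equal summed values (downward triangles); dashed lines mark 2-fold. The order of the genes from Crb2 at the left to Crb3 at the right is the same under all 3 scalings. Each scaling multiplies every eye value by the same factor, so that order is nearly fixed in advance and nothing is read from it. The sign turns for Lin7c without lens genes and for Mpp5, Pard3 and Prkci with equal summed values.

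Reads of overlapping genes may be shared, since how strand was treated in the counting could not be told from the sources used. In GRCr8, Crb2 overlaps the protein-coding gene Dennd1a, Mpp4 overlaps Tmem237 and 1 unnamed protein-coding gene, and Pard6a overlaps Enkd1. Crb1, Crb3, Lin7c and Prkci overlap no other gene there, and the remaining 3 overlap only noncoding genes or pseudogenes. Whether this holds for the gene models used in counting is not known.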

How the data were processed

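The labels list 4 samples, grouped by the tissue in their titles, and 1 deposited column per tissue was analysed. The authors used GSNAP, HTSeq and the rat build rn4, per the submitters' processing notes. Versions, settings, annotation and strand use could not be told from the sources used. The deposited values are taken as RPKM, inferred from the values. Assuming whole reads, whole lengths and 1 total per library, 13978 of 13980 genes searched gave whole reads within the printed rounding. The totals kept were those giving the smallest lengths and reads, so reads may be a shared divisor of the true ones. The intervals would then be too wide. The recovery was tested on simulated data. Of 14533 rows, 7 held ND; of 41 repeated names the row with most decimals was kept, leaving 14485 names, of which 401 had at most 5 decimals and no recovered reads. Tested were the 13259 genes that reached 1 RPKM in 1 or both libraries. Each difference was log2((eye + 0.1) / (retina + 0.1)), called at 2-fold. Named folds are ratios of values as deposited. Clopper-Pearson intervals of reads used scipy 1.17.1 in Python 3.11.15.

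The members, lists, motifs and settings were chosen with earlier results of these data known. The naming rule took, besides the 10 genes, up to 3 called genes each way and the 3 most abundant of each related list. It also took the 3 most abundant genes of each marker list, which are given as lists only. The Par paralogs, Cdh2, Yap1, Mpp7, Jam2, Jam3 and Tjp1 were named outside this rule. Alternatives were an added 1 or 0.01, a minimum of 5 or none, a call at 1.5-fold or 4-fold, and 4 scalings: totals without lens genes, a trimmed mean of log ratios, a median of ratios and equal summed values.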

Additional observations from a re-analysis of the deposited data

How the results depend on the processing

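Of the 10 genes, 3 were reported as lower in eye; the number was 5 with equal summed values, 5 at a fold of 1.5 and 0 at a fold of 4. The number higher, 1 as reported, was 0 at a fold of 4. No share of all genes is given at a fold of 1.5 or 4, and nothing is read from those counts. The median log2 difference of the 10 genes, -0.41 as reported, was -0.22 when lens genes were taken from the totals and -1.04 when sums were made equal, while the median of all genes tested was 0.18 and -0.64. Over the 5 related lists, of 8, 12, 9, 14 and 10 tested genes, 5 genes lower and 9 higher as reported became 19 and 4 with equal summed values. Among all genes tested, 7.95% lower and 17.8% higher likewise became 31.9% and 11.5%. A stricter or looser fold and a shift of all ratios give this by construction. An added 1 or 0.01, the trimmed mean of log ratios and the median of ratios left the sign of all 10 genes as reported. Totals without lens genes turned the sign of 1 (Lin7c) and equal summed values of 3 (Mpp5, Pard3 and Prkci), none of them called. No paired analysis was possible because 1 column of values per tissue was analysed, which also leaves no replicate to leave out. By recovered reads, depth limits Pard6a, on 86 in eye, and Crb3, on 137 in retina, most.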
